A study of Mus musculus with 9 samples.

Results

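The Rap GTPases are Ras-family switches that are active when they carry GTP. Exchange factors load them with GTP, GTPase-activating proteins (GAPs) make them hydrolyse it, and effectors that bind the active form act on integrins, cell junctions and the cytoskeleton. In skin, Rap signalling is known for its part in the adhesion of keratinocytes, endothelial cells, platelets and leukocytes. Described here are 32 genes of this module among the 29205 genes of a mouse back skin RNA-seq table, found by gene name and divided by role into 5 Rap GTPases, 7 GAPs, 13 exchange factors and 7 effectors. Rap1gds1 was placed with the exchange factors by its name as a GDP dissociation stimulator.

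The study asked how Longkui Yinxiao soup, a herbal decoction, acts on the psoriasis-like skin lesion that imiquimod (IMQ), a Toll-like receptor agonist, produces in mice. All animals were male BALB/c mice aged 6 to 8 weeks, kept free of specific pathogens, and hair was removed from the back in all groups, controls included, by shaving and a chemical cream. The control group received no IMQ, the IMQ group received 62.5 mg of 5% IMQ cream a day on the back for 5 days, and the LYS group received the same cream and the soup by stomach tube; back skin was taken on day 13. RNA-seq was made from 3 skins drawn from each group, giving 9 libraries. The methods name the sequenced group as the one given more of the soup, and the labels give no dose. No group given IMQ and the soup's vehicle alone is described, so the soup and its giving by tube cannot be told apart.

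Total counts ran from 14658645 to 19609878 per library, and all 32 members had at least 33 reads in every library. Levels are given as CPM (counts scaled to a common library size with TMM factors) for comparisons of 1 gene between libraries, and as FPKM (counts per length of exon and per library size) for comparisons between genes. A member was called when the quasi-likelihood test of edgeR gave a Benjamini-Hochberg adjusted p under 0.05 over all genes tested and the absolute log2 fold change was over 0.58. In RNA from whole skin, fewer cells of a type and less RNA per cell cannot be told apart. Calls between LYS and IMQ skin depended on LYS replicate 1 and IMQ replicate 1, and their counts without each are given below.

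The sequences below show which transcripts the qPCR oligos listed for 3 members match, because their names tie the module to single genes. Each line is the stretch between an oligo pair, written 5′ to 3′ along the transcript, with the oligo sites in capitals, found by exact match to GENCODE M21 transcripts (GRCm38).

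Oligos named Rap1gap, Rap1gap transcript: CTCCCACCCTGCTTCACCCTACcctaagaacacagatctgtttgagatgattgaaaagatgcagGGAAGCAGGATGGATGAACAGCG
Oligos named Rap1b, Rap1b transcript: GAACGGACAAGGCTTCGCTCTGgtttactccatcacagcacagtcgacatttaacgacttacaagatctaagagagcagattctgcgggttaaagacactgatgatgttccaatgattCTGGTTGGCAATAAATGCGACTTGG
Oligos named Rap1a, Rap1gap2 transcript: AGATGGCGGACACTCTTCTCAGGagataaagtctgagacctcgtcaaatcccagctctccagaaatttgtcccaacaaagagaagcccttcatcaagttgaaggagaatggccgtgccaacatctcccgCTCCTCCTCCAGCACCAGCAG

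The Rap1gap stretch of 87 bases lies in coding sequence of exons 3 to 5 of Rap1gap-203, within chr4:137704140-137710637 on the plus strand. The Rap1b stretch of 143 bases lies in coding sequence of exons 5 and 6 of Rap1b-201, within chr10:117818573-117820567 on the minus strand. The oligos named Rap1a matched no Rap1a transcript exactly. Both matched 3 transcripts of Rap1gap2 and no other gene, and the stretch of 150 bases lies in coding sequence of exons 20 and 21 of Rap1gap2-202, within chr11:74393097-74393452 on the minus strand. Over the 4 Rap1a transcripts, the best ungapped placement left 9 mismatches for the forward and 7 for the reverse oligo. Rap1a encodes a GTPase and Rap1gap2 a GAP, and the RNA-seq values of both are given below under their own gene names. The whole genes lie at chr4:137664726-137729861 on the plus strand (Rap1gap), chr11:74383356-74610915 on the minus strand (Rap1gap2), chr3:105727267-105801336 on the minus strand (Rap1a) and chr10:117813871-117846035 on the minus strand (Rap1b).

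Compared with control skin, 15 of the 32 members were called in IMQ skin (46.9%), 7 higher and 8 lower, against 51% of all genes tested (24.1% higher and 26.9% lower). The members thus moved at about the rate of the whole table, and their median log2 fold change was -0.08 against -0.06 for all genes. By role, 0 of 5 GTPases (2 at an unadjusted p under 0.05, which 65% of all genes had), 5 of 7 GAPs, 7 of 13 exchange factors and 3 of 7 effectors were called. Without a scaling factor between libraries the split was 5 higher and 14 lower, against 2390 higher and 6854 lower of all 15976 genes tested. The median of all genes was then -0.51. Between LYS and IMQ skin, edgeR on the 6 libraries called 0 of 32 members and 0% of all genes, with a smallest adjusted p of 0.0591. At an unadjusted p under 0.05 this comparison held 22 of 32 members, against 35.2% of all genes. In the same comparison 15 members were called (11 higher, 4 lower) when all 9 libraries shared 1 estimate of the spread, against 18.5% of all genes (9.93% higher and 8.62% lower). DESeq2 also called 15 (11 higher, 4 lower), against 21.9% (12.8% higher and 9.18% lower). Compared with control skin, 9 members were called in LYS skin, all higher, against 28% of all genes (15.1% higher and 12.9% lower). The comparisons share the IMQ or the control libraries, so their values are set side by side and not tested against each other.

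**Figure D1:**
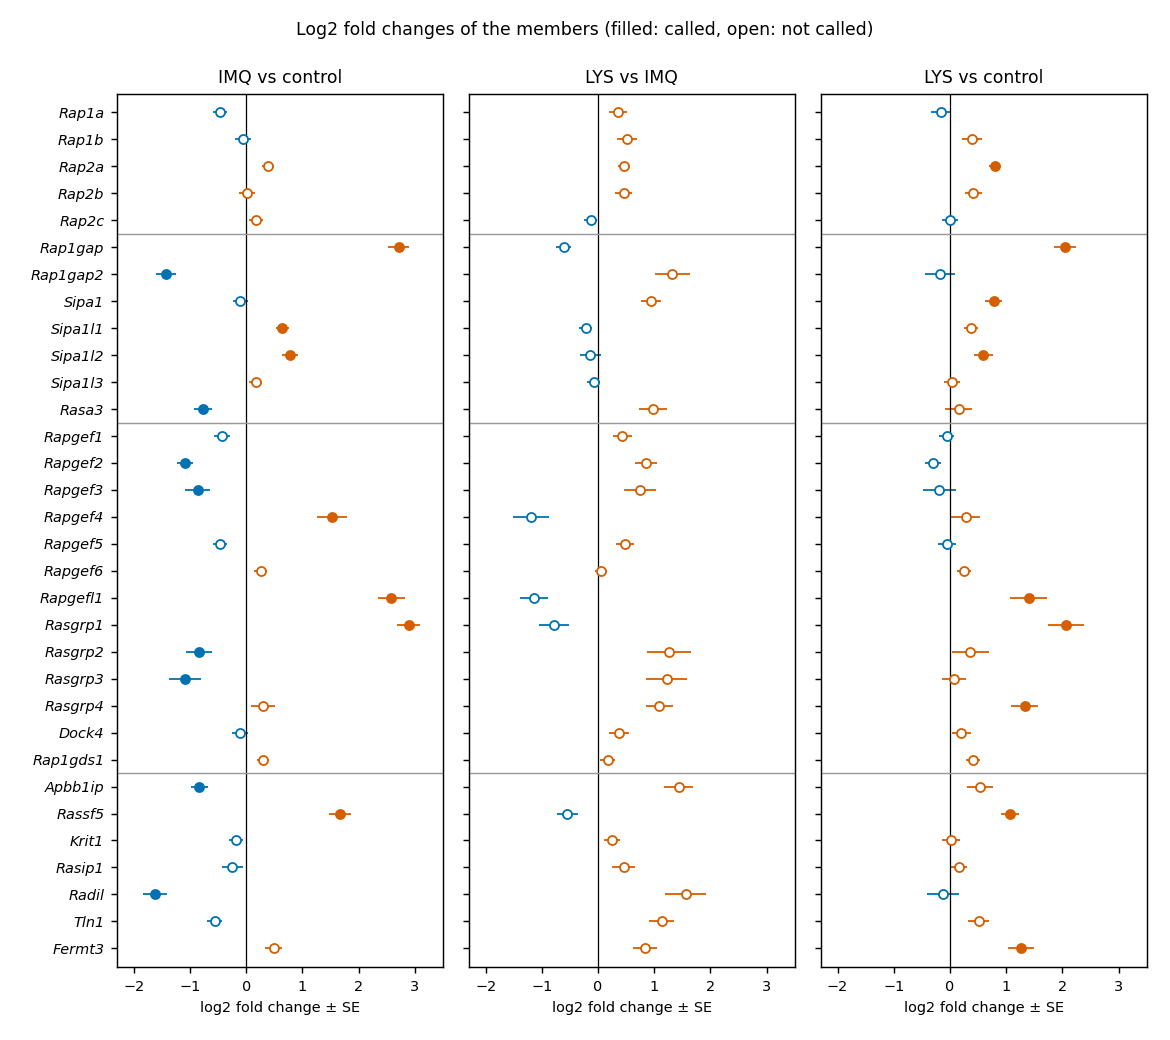
Log2 fold change (x axis) of each of the 32 members (y axis, ordered by class) in the 3 comparisons, 1 panel each, with bars of the standard error and filled points for called members. In LYS against IMQ no point is filled, and 23 of 32 members lie above 0.

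With TMM scaling none of the 5 GTPases was called in IMQ skin. Rap1b, one of the pair of Rap1 proteins and the main one of platelets, had the highest level of all members, a mean of 84.8 FPKM over the 9 libraries. Its values were 253, 209.6 and 199 CPM in the control libraries, 193, 232 and 214 in the IMQ libraries and 233, 317 and 316 in the LYS libraries. The control and IMQ libraries overlapped, with log2 fold change -0.06, SE 0.14, adjusted p = 0.723. All LYS libraries lay above all IMQ libraries, LYS replicate 1 by the least, with log2 fold change 0.51, SE 0.17, adjusted p = 0.0925. Rap1a, its close relative, stood at 102, 85.7 and 77.9 CPM in the control libraries, 58.4, 67.4 and 67.8 in the IMQ libraries and 64.5, 81.2 and 90.0 in the LYS libraries. All IMQ libraries lay below all control libraries, and the difference was under the fold threshold (log2 fold change -0.46, SE 0.13, adjusted p = 0.0141). Without scaling it was -0.91 and was called (edgeR adjusted p = 0.000498). The LYS libraries overlapped both other groups, and 9.46% of the Rap1a transcript's 50-base windows also occur in 2 other annotated genes, so reads could be shared.

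The Rap2 proteins, which are known for binding kinases of the MAP4K family, differed from one another. Rap2a was measured at 33.4, 32.3 and 33.2 CPM in the control libraries, 44.4, 46.3 and 39.6 in the IMQ libraries and 57.4, 55.8 and 58.6 in the LYS libraries. Its 3 groups did not overlap and lay in the order control, IMQ, LYS. Rap2a rose in LYS skin compared with control skin (log2 fold change 0.80, SE 0.11, adjusted p = 0.00235), the only GTPase called in the 3 comparisons with 6 libraries and TMM scaling, and its IMQ difference was under the fold threshold (log2 fold change 0.39, SE 0.11, adjusted p = 0.0151) and turned to -0.06 without scaling. Rap2b stood at 15.7, 18.6 and 18.2 CPM in the control libraries, 16.3, 20.2 and 16.9 in the IMQ libraries and 21.1, 26 and 22.7 in the LYS libraries. The LYS libraries were above all others, but 57.3% of the windows of the Rap2b transcript lie in a gene annotated on the opposite strand or in another gene. The library kit named does not mark strand, so reads there cannot be assigned by strand, and the strand setting of the counting is not given. The values of Rap2b are therefore uncertain. Rap2c stood at 65.2, 53.3 and 68.3 CPM in the control libraries, 67.1, 75 and 70.7 in the IMQ libraries and 58.3, 68 and 59.2 in the LYS libraries, and all 3 groups overlapped one another in pairs, with log2 fold changes from -0.13 to 0.18.

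**Figure D2:**
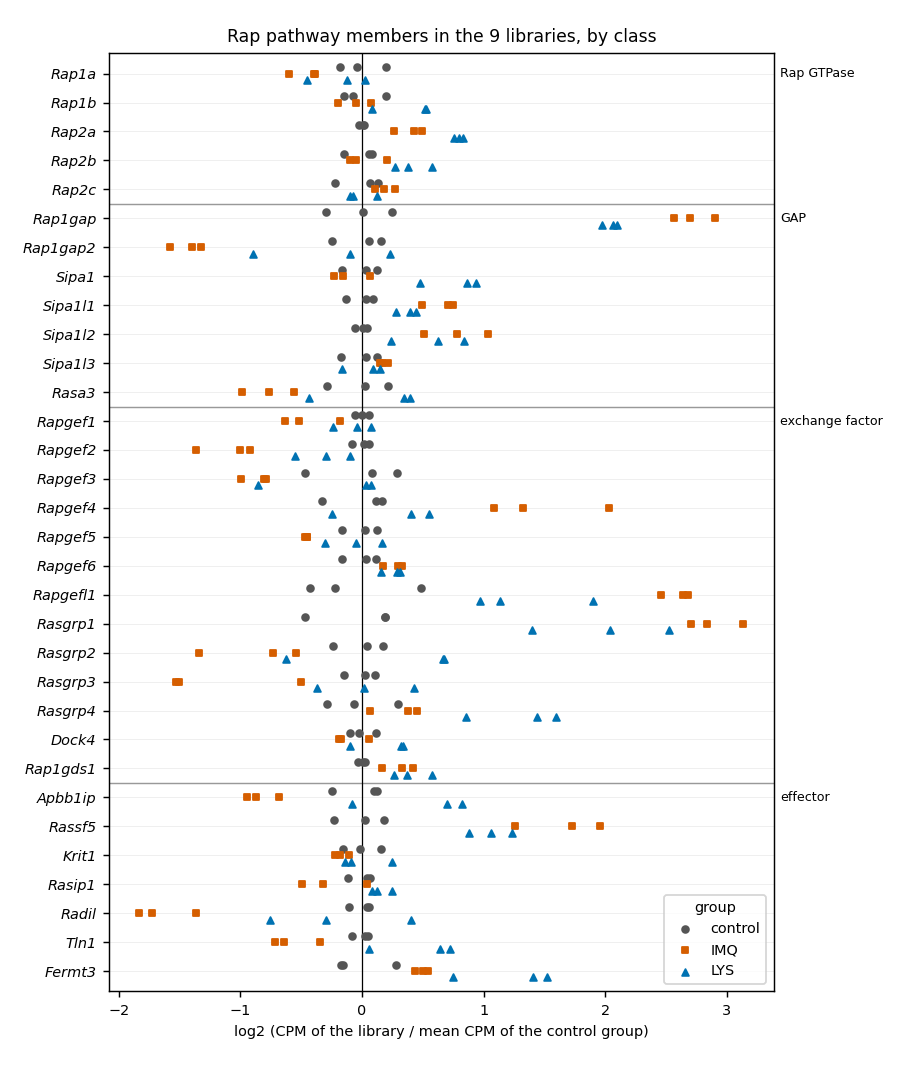
Level of each of the 32 members (y axis, ordered by class) in the 9 libraries. The x axis gives the log2 ratio of CPM to the mean CPM of the control libraries, and colour and marker give the group. Rap1gap, Rapgefl1, Rasgrp1 and Rassf5 stand out as higher in the IMQ libraries. For all 4 the LYS points lie between the IMQ and control points.

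The exchange factors held the largest increase of the module in IMQ skin, 2 further increases and 4 decreases. Rasgrp1, a diacylglycerol-responsive exchange factor known from T cells and keratinocytes that acts mainly on Ras, lies at chr2:117279993-117343001 on the minus strand and rose 7.43-fold in IMQ skin. Its levels were 11.9, 7.53 and 11.9 CPM in the control libraries, 68, 91.8 and 74.6 in the IMQ libraries and 60.2, 42.9 and 27.6 in the LYS libraries. No IMQ or LYS library overlapped the controls (log2 fold change 2.89, SE 0.21, adjusted p = 2.93e-05 for IMQ and log2 fold change 2.07, SE 0.32, adjusted p = 0.00375 for LYS). All LYS libraries were below all IMQ libraries, with log2 fold change -0.79, SE 0.26, adjusted p = 0.0897.

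Rapgefl1, an exchange factor-like protein whose catalytic activity is less studied, lies at chr11:98836785-98853697 on the plus strand. It had the highest mean FPKM of its class (a mean of 26.7 FPKM over the 9 libraries) and rose 6.00-fold in IMQ skin. It was measured at 43.7, 38 and 71.4 CPM in the control libraries, 281, 318 and 327 in the IMQ libraries and 190.4, 112 and 99.8 in the LYS libraries. The 3 groups did not overlap, and the order was control, LYS, IMQ. Both IMQ and LYS skin were called against control (log2 fold change 2.58, SE 0.24, adjusted p = 8.54e-05 and log2 fold change 1.40, SE 0.32, adjusted p = 0.0157), the latter in 10 of 12 other settings. LYS lay below IMQ with log2 fold change -1.14, SE 0.24, adjusted p = 0.0591, and with all 9 libraries this difference was called (log2 fold change -1.20, adjusted p = 0.0257). Rapgefl1 made up 17.1% ± 4.98 of the summed FPKM of its class in control, 51.3% ± 2.58 in IMQ and 30.2% ± 8.61 in LYS skin (SD, n = 3).

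Rapgef3 and Rapgef4 encode Epac1 and Epac2, which open to Rap when cAMP binds them, and the pair moved in opposite directions in IMQ skin. Rapgef4 rose (log2 fold change 1.53, SE 0.27, adjusted p = 0.00179), with 7.73, 5.50 and 7.45 CPM in the control libraries, 14.6, 17.3 and 28.1 in the IMQ libraries and 10.1, 5.82 and 9.12 in the LYS libraries. The LYS libraries overlapped the controls and lay below all IMQ libraries (log2 fold change -1.20, SE 0.32, adjusted p = 0.0644). IMQ replicate 3 was the highest of the 9 libraries. Rapgef3 fell in IMQ skin (log2 fold change -0.86, SE 0.22, adjusted p = 0.0096), and its LYS libraries overlapped both other groups. The PDZ-domain exchange factor gene Rapgef2 fell as well (log2 fold change -1.09, SE 0.15, adjusted p = 0.000486), with 31.8, 35 and 34 CPM in the control libraries, 17.8, 16.8 and 13 in the IMQ libraries and 22.9, 27.5 and 31.4 in the LYS libraries. All LYS libraries lay between the other groups without touching either.

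The remaining genes of the RasGRP family differed from one another. Rasgrp3, which acts on Ras and Rap and is known from B cells and vessels, fell in IMQ skin (log2 fold change -1.09, SE 0.29, adjusted p = 0.0121), with 14.5, 13.8 and 12.2 CPM in the control libraries, 9.54, 4.77 and 4.69 in the IMQ libraries and 10.5, 13.7 and 18.2 in the LYS libraries. LYS replicate 1 was the lowest of its group and stood just above the IMQ libraries, whereas LYS replicates 2 and 3 were within or above the control range. Rasgrp2 encodes CalDAG-GEFI, the calcium-responsive Rap1 exchange factor of platelets and neutrophils. It stood at 11.8, 13 and 9.74 CPM in the control libraries, 6.92, 7.89 and 4.54 in the IMQ libraries and 7.47, 18.4 and 18.3 in the LYS libraries. It fell in IMQ skin in the 6-library test (log2 fold change -0.84, SE 0.23, adjusted p = 0.0147) but was not called when all 9 libraries shared the spread (log2 fold change -0.84, adjusted p = 0.0601). Rasgrp4, known from mast cells and myeloid cells, was measured at 10.4, 6.93 and 8.08 CPM in the control libraries, 11.6, 8.86 and 11 in the IMQ libraries and 15.4, 25.5 and 22.9 in the LYS libraries. The control and IMQ libraries overlapped, and all LYS libraries were above both, and Rasgrp4 rose in LYS skin compared with control skin (log2 fold change 1.33, SE 0.24, adjusted p = 0.0065). Of the windows of the Rasgrp4 transcript, 21.2% also lie in Fam98c or Gm16282, and its values are uncertain for that reason. Of 5 mast cell markers, all were called lower in IMQ skin and none was called by edgeR in LYS against control skin, with summed levels of 158 to 277 CPM in control, 65 to 94.4 in IMQ and 131 to 242 in LYS libraries. Their part in these values was not tested.

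Of the other exchange factors, Rapgef1 (recruited through Crk adaptors), Rapgef5, Rapgef6, Dock4 and Rap1gds1 were not called in any comparison with 6 libraries and TMM scaling, and Rapgef1 and Rapgef5 were called in IMQ skin without scaling. Their log2 fold changes lay from -0.47 to 0.30 for IMQ against control, from 0.06 to 0.48 for LYS against IMQ and from -0.06 to 0.41 for LYS against control. Their mean FPKM over the 9 libraries ran from 0.867 to 15.1, with Rapgef1 the highest.

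**Figure D3:**
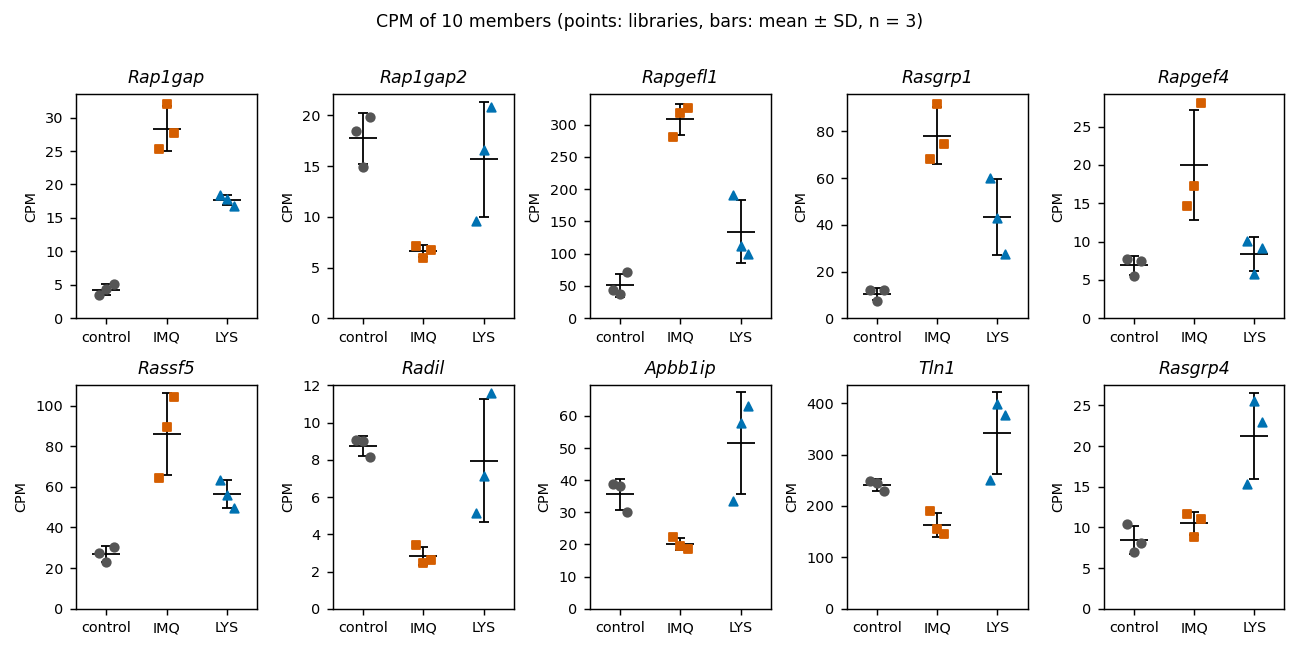
TMM-scaled CPM of 10 members (1 panel each, y axis from 0) in the control, IMQ and LYS libraries, with points for libraries and bars for the mean and SD of 3. Rap1gap, Rapgefl1 and Rasgrp1 are higher in every IMQ and LYS library than in every control library, and Rap1gap2 is lower in every IMQ library.

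Of the 7 GAPs, 3 were called higher and 2 lower in IMQ skin, and a pair of near relatives lay on opposite sides. Rap1gap, which switches off Rap1, rose 6.57-fold in IMQ skin, and Rap1gap2, a relative known from platelets, fell 2.70-fold. The Rap1gap values were 3.48, 4.30 and 5.06 CPM in the control libraries, 25.3, 32.1 and 27.7 in the IMQ libraries and 18.4, 17.9 and 16.9 in the LYS libraries. Its 3 groups did not overlap and lay in the order control, LYS, IMQ (log2 fold change 2.72, SE 0.19, adjusted p = 2.63e-05 for IMQ and log2 fold change 2.05, SE 0.19, adjusted p = 0.00063 for LYS against control). LYS was below IMQ with log2 fold change -0.61, SE 0.13, adjusted p = 0.0591. Rap1gap2 was measured at 18.5, 14.9 and 19.8 CPM in the control libraries, 7.11, 5.96 and 6.74 in the IMQ libraries and 9.56, 16.6 and 20.8 in the LYS libraries. The IMQ libraries lay below all others (log2 fold change -1.43, SE 0.18, adjusted p = 0.00031), LYS replicate 1 stood just above them, and LYS replicates 2 and 3 were within the control range or above it. LYS against IMQ gave log2 fold change 1.32, SE 0.31, adjusted p = 0.0591.

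Of the summed FPKM of this pair, Rap1gap made up 21.3% ± 3.57 in control, 82.6% ± 2.95 in IMQ and 56.7% ± 10.5 in LYS skin (SD, n = 3). By mean FPKM over all libraries both were minor GAPs (2.44 and 1.98), below Rasa3 at 16 and Sipa1 at 10.2. Rasa3, a GAP for Ras and Rap that restrains Rap1 in platelets, fell in IMQ skin (log2 fold change -0.76, SE 0.16, adjusted p = 0.00429). Its values were 88.7, 101 and 71.5 CPM in the control libraries, 59.2, 51.2 and 44 in the IMQ libraries and 64.5, 115 and 111 in the LYS libraries. The LYS libraries all lay above the IMQ libraries, LYS replicate 1 by the least (log2 fold change 0.98, SE 0.25, adjusted p = 0.0615). Sipa1, a Rap GAP abundant in lymphoid and other blood-forming cells, stood at 39.3, 36.9 and 32.2 CPM in the control libraries, 37.9, 32.5 and 30.8 in the IMQ libraries and 50.2, 65.8 and 69.3 in the LYS libraries. Control and IMQ libraries overlapped, and Sipa1 rose in LYS skin compared with control skin (log2 fold change 0.78, SE 0.16, adjusted p = 0.00953). The SPAR-family GAPs Sipa1l1 and Sipa1l2 were called higher in IMQ skin (log2 fold changes 0.65 and 0.78), and Sipa1l3 did not pass the test (0.17). Without scaling Sipa1l1 and Sipa1l2 stood at 0.19 and 0.33 and were not called. The LYS call of Sipa1l2 against control (0.60, adjusted p = 0.0332) was made in 4 of 12 other settings.

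Of the 7 effectors, 1 was called higher and 2 lower in IMQ skin. Rassf5, which encodes the integrin-activating adaptor RAPL, rose 3.18-fold in IMQ skin. Its levels were 27.3, 22.9 and 30.5 CPM in the control libraries, 64.5, 89.3 and 104 in the IMQ libraries and 63.2, 56 and 49.5 in the LYS libraries. Every IMQ and LYS library lay above every control (log2 fold change 1.67, SE 0.19, adjusted p = 0.000228 for IMQ and log2 fold change 1.07, SE 0.16, adjusted p = 0.0035 for LYS). All LYS libraries lay below all IMQ libraries (log2 fold change -0.55, SE 0.19, adjusted p = 0.0934). Radil, a Rap effector of endothelial and other junctions, fell in IMQ skin (log2 fold change -1.62, SE 0.21, adjusted p = 0.000395), with 9.08, 9.01 and 8.13 CPM in the control libraries, 3.40, 2.46 and 2.64 in the IMQ libraries and 5.16, 7.12 and 11.6 in the LYS libraries. LYS replicate 1 was again the LYS library nearest to IMQ. Apbb1ip, the gene of RIAM, which brings talin to the membrane, fell as well (log2 fold change -0.83, SE 0.15, adjusted p = 0.00162), with 38.7, 38.1 and 30.0 CPM in the control libraries, 22.2, 19.4 and 18.5 in the IMQ libraries and 33.6, 57.8 and 63.1 in the LYS libraries. All LYS libraries were above all IMQ libraries.

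Tln1 (talin, which switches integrins to their binding form) and Fermt3 (kindlin-3, its partner in blood cells) act at the end of this route. Tln1 had the highest mean FPKM of the effectors (26.3) and was measured at 249, 246 and 228 CPM in the control libraries, 190.1, 155 and 146 in the IMQ libraries and 250.2, 399 and 377 in the LYS libraries. All IMQ libraries lay below all controls, with the difference just under the fold threshold (log2 fold change -0.56, SE 0.14, adjusted p = 0.00821) and called without scaling, and all LYS libraries lay above all controls, LYS replicate 1 by little (log2 fold change 0.51, SE 0.19, adjusted p = 0.0811). Fermt3 was measured at 30.8, 22.8 and 22.5 CPM in the control libraries, 35.8, 37 and 34.4 in the IMQ libraries and 42.5, 67.1 and 72.8 in the LYS libraries. It rose in LYS skin compared with control skin (log2 fold change 1.26, SE 0.23, adjusted p = 0.00633) and was not called in IMQ skin (log2 fold change 0.49, SE 0.15, adjusted p = 0.0205). Krit1 and Rasip1, both known from vessel junctions, were called in IMQ skin without scaling and in no comparison with it, and 34.6% of the windows of Rasip1 lie in other genes.

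In LYS against IMQ skin the 32 members had a median log2 fold change of 0.46, against 0.04 for all genes, and 23 of them were higher. Without scaling these values were 0.71, 0.29 and 27, and the medians for LYS against control went from 0.32 for the members and -0.01 for all genes to 0.18 and -0.15. The groups did not overlap for 21 members, 15 of them higher and 6 lower in LYS, against 38.9% of all genes (16.8% higher and 22.1% lower). The 15 members called with all 9 libraries were, higher in LYS, the GAPs Rap1gap2, Sipa1 and Rasa3, the exchange factors Rapgef2, Rasgrp2, Rasgrp3 and Rasgrp4, and the effectors Apbb1ip, Radil, Tln1 and Fermt3. The 4 lower ones were Rap1gap, Rapgef4, Rapgefl1 and Rassf5. DESeq2 called the same members, except for Rasgrp1 (lower, DESeq2 adjusted p = 0.036) in place of Rassf5 (0.0518). The count depended on single libraries: without LYS replicate 1 it was 18 of 32 in the 6-library design (26.8% of all genes), without IMQ replicate 1 it was 9 of 32 (11.8% of all genes), and without any other single library 0. For LYS against control the groups did not overlap for 16 members (15 higher, 1 lower), against 50.3% of all genes (25% higher and 25.3% lower), and for IMQ against control for 24 (12 higher, 12 lower), against 70% (34.1% higher and 35.9% lower).

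**Figure D4:**
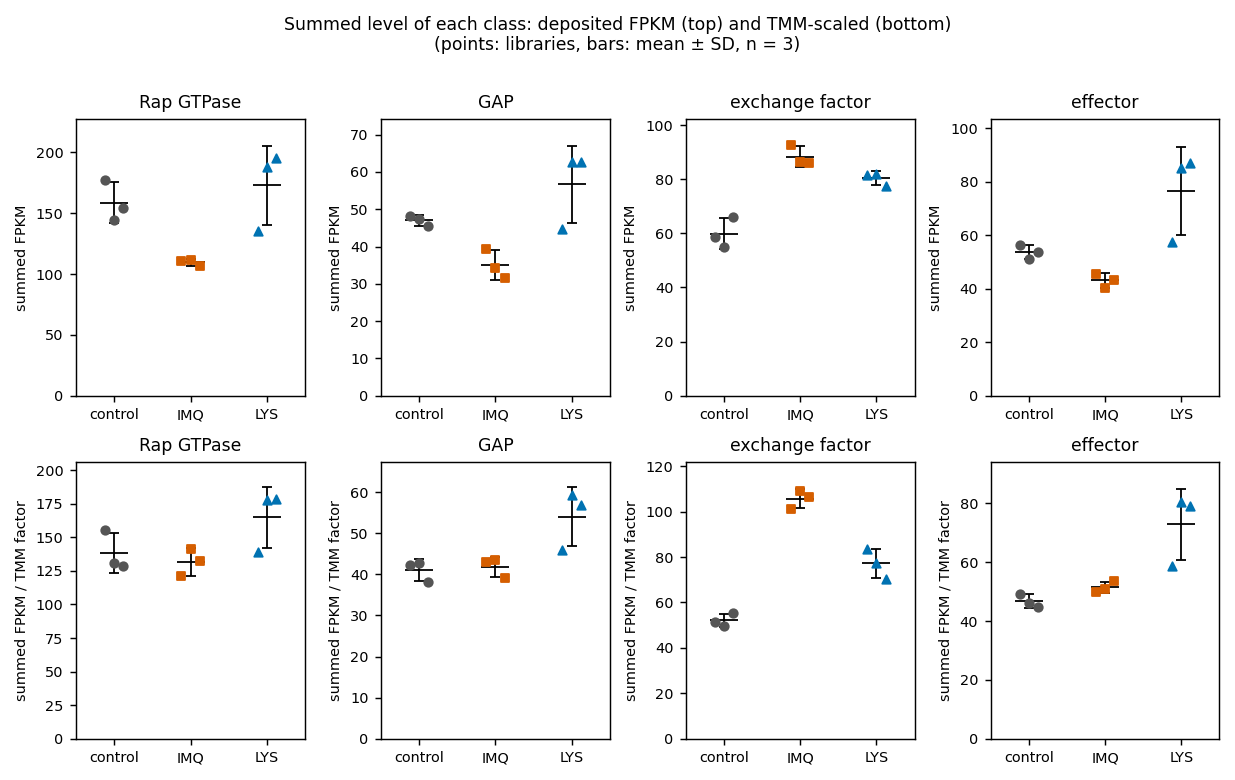
Summed level of the members of each class (columns) in the control, IMQ and LYS libraries, from the deposited FPKM (upper row) and from FPKM divided by the TMM factor (lower row), with points for libraries and bars for the mean and SD of 3. The exchange factor sum is higher in every IMQ library than in every control on both scales, while the GTPase and GAP sums of the IMQ libraries lie below all controls in the upper row and overlap them in the lower row.

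Summed over a class, the deposited FPKM gave the exchange factors 59.9 ± 5.82 in control, 88.3 ± 3.81 in IMQ and 80.3 ± 2.58 in LYS skin (SD, n = 3). Mean FPKM of Rapgefl1 was 10.4 in control and 45.3 in IMQ skin, and that of Rasgrp1 was 2.15 and 11.6. Apart from Rapgef4 (1.19 and 2.48), each of the other exchange factors had a lower mean FPKM in IMQ than in control skin. In the 6-library fit with TMM scaling, log2 fold changes of the class were above 0 for 6 genes and below 0 for 7 (median -0.11). The IMQ and control libraries of this class did not overlap on either scale. The GTPase sum was 159 ± 16.8 in control, 109.7 ± 2.79 in IMQ and 173 ± 32.6 in LYS skin (SD, n = 3). After TMM scaling the IMQ and control libraries of the GTPases overlapped, at 132 and 138. The GAP sum was 47 ± 1.42 in control, 35.1 ± 3.95 in IMQ and 56.7 ± 10.2 in LYS skin (SD, n = 3), and after TMM scaling it was 41.0 in control and 41.9 in IMQ skin. For the effectors the sum was 53.6 ± 2.69 in control, 43.1 ± 2.64 in IMQ and 76.6 ± 16.5 in LYS skin (SD, n = 3), and after scaling the order of control and IMQ turned, to 46.8 and 51.5. Of the 4 class sums, only that of the exchange factors had the same direction in IMQ against control, without overlap, on both scales.

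Cell type markers moved with several of these genes. The 4 differentiated keratinocyte markers (Krt1, Krt10, Flg, Ivl) were all called higher in IMQ and in LYS skin, with summed levels of 3337 to 5768 CPM in control, 24888 to 41388 in IMQ and 8439 to 16704 in LYS libraries, beside the increases of Rap1gap, Rapgefl1, Rasgrp1 and Rassf5. Basal keratinocyte markers were called higher for 3 of 4 and lower for 1 in IMQ skin (sums of 1784 to 2709 CPM in control, 10148 to 11996 in IMQ and 6768 to 12381 in LYS libraries). Endothelial markers were called lower for 6 of 8 in IMQ skin and for 0 of 8 in LYS against control (sums of 424 to 608 CPM in control, 179 to 361 in IMQ and 358 to 687 in LYS libraries), beside Radil, Rasgrp3 and Rapgef3. Krit1 and Rasip1, also known from vessel junctions, overlapped between control and IMQ libraries and were not called with TMM scaling (log2 fold changes -0.18 and -0.24). Of 3 platelet markers tested, only Pf4 was called lower in IMQ skin (sums of 37.3 to 64.5 CPM in control, 13.1 to 25.4 in IMQ and 35.7 to 58.8 in LYS libraries), beside Rap1gap2, Rasgrp2 and Rasa3. Nearly all of that sum was Pf4 (log2 fold change -1.79), Ppbp and Gp1ba stood at -0.08 and 0.52 without a call, and Gp9 was at 0 in 1 IMQ library. Rap1b and Fermt3, described above with platelets and blood cells, did not fall with Pf4. Rap1b overlapped between control and IMQ libraries (log2 fold change -0.06), and Fermt3 was higher in all IMQ libraries without a call (0.49).

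Among leukocyte markers, the T cell list was called higher for 4 of 6 and lower for 2 in IMQ skin and higher for 4 of 6 in LYS against control (sums of 12.1 to 15.9 CPM in control, 14 to 19.9 in IMQ and 23.4 to 32.3 in LYS libraries). The neutrophil list was called higher for 4 of 4 tested in both (sums of 22.8 to 35.4 CPM in control, 194 to 488 in IMQ and 158 to 391 in LYS libraries), and its defining gene Ly6g was near 0 in all libraries. The macrophage and dendritic cell list was called higher for 2 of 6 in IMQ skin, Cd14 and Cd207 (sums of 404 to 576 CPM in control, 562 to 999.7 in IMQ and 792 to 1160.0 in LYS libraries). Cd14, with log2 fold change 4.15, set the higher sum in IMQ skin, and Csf1r (-0.43), Adgre1 (-0.38) and Cd68 (-0.23) were not called. Lists of skeletal muscle (6 of 6), fibroblast (5 of 5), adipocyte (4 of 4), hair follicle (4 of 4) and Schwann cell genes (2 of 4) were called lower in IMQ skin, and the hair follicle sum was under 1 CPM in all IMQ and LYS libraries against 1693 to 3628 CPM in control. The part of these cell types in the values of the members was not tested.

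Genes that work beside the module moved in both directions as well. Of 24 other Rap effectors and partners, 5 were called higher in IMQ skin and 5 lower. Tiam1, a Rac exchange factor, and Mink1, a Rap2-binding kinase, rose by log2 fold changes of 2.14 and 1.65, and Fermt2 (kindlin-2) and Heg1, the receptor that Krit1 binds, fell by 2.18 and 1.67 on the log2 scale. Of 8 adenylate cyclases tested, which make the cAMP that opens Epac proteins, Adcy3 was called higher and 5 were called lower. Of 10 integrin genes, Itgal and Itgax rose (1.01 and 1.78), and Itgb1, Itgb3 and Itga5 fell (-1.41, -1.74 and -0.99). These shares stand beside the 24.1% of all genes called higher and 26.9% called lower. In LYS against IMQ skin the 6-library edgeR test called none of these genes. With all 9 libraries sharing the spread, 7 of 10 integrins, 8 of 24 partners and 5 of 8 cyclases were called higher, and 1 partner and 1 cyclase lower, against 9.93% of all genes higher and 8.62% lower. The median log2 fold change of the integrins in LYS against IMQ was 1.13, and that of all genes 0.04.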

How the data were processed

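The deposited table held raw counts and FPKM per gene and library. Per the submitters' processing notes HISAT2, HTSeq 0.13.5 and the build GRCm38 were used, with their roles not stated, and the library kit named does not mark strand. The FPKM values, which the authors computed from the counts, use the exon length of GENCODE M21 for 98.4% of 29128 matched genes. Members, lists and tests were chosen with earlier results of these data known.

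Each comparison was fitted on its 6 libraries with edgeR 4.0.16 (R 4.3.3), using filterByExpr, TMM scaling and the quasi-likelihood test over all genes, with Benjamini-Hochberg adjustment, and called as stated above. All 32 members passed the filter in all 3 comparisons. Named with values in every library were the 5 GTPases, Rap1gap, members called with an absolute log2 fold change over 1, members called between LYS and IMQ with 6 or 9 libraries, and the member with the highest FPKM of each class. Libraries of 1 group differed by 16.9 to 100.0 chi-square per degree of freedom, so none was a repeat of another. With 3 skins a group, each p-value weighs the group difference against the spread between skins, estimated with information shared across genes. Alternatives were DESeq2 1.42.0, RLE or no scaling, no filter, other fold thresholds, all 9 libraries, a replicate block and each library left out.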

Additional observations from a re-analysis of the deposited data

How the results depend on the processing

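For IMQ against control, 15 of 32 members were called, 9 with an absolute log2 fold change over 1, and 13 to 16 with 1 library left out. The matching counts over all genes were 8145 and 5772 of 15976 tested, and from 7372 of 16298 to 8894 of 16401 with 1 library left out. Between LYS and IMQ skin, the edgeR count of 0 members became 15 by DESeq2, 14 without the filter, 15 with all 9 libraries and 0 to 18 with 1 library left out (9 without IMQ replicate 1, 18 without LYS replicate 1). Over all genes these counts were 3392 of 15460 tested by DESeq2, 2419 of 27402 without the filter and 3040 of 16392 with all 9 libraries. With 1 library left out they were 0 to 4262 (1873 of 15840 without IMQ replicate 1, 4262 of 15895 without LYS replicate 1). For LYS against control, 2910 of 16003 genes tested and 6 of 32 members were called with an absolute log2 fold change over 1. With 1 library left out, 7 to 11 members were called. Over all genes the counts then ran from 2579 of 16318 to 5072 of 16447 (2579 and 2947 without control replicates 1 and 2, 2926 without LYS replicate 2). TMM scaling moved the class sums in control and IMQ skin to 138 and 132 for GTPases, 41.0 and 41.9 for GAPs, 52.1 and 105.7 for exchange factors (77.2 in LYS) and 46.8 and 51.5 for effectors. The cause of these differences was not tested beyond the settings themselves.

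Directions turned for members near 0. Without scaling, IMQ against control gave -0.058 for Rap2a, -0.44 for Rap2b, -0.28 for Rap2c, -0.28 for Sipa1l3, -0.20 for Rapgef6, -0.14 for Rasgrp4 and -0.15 for Rap1gds1. LYS against IMQ gave 0.13 for Rap2c, 0.042 for Sipa1l1, 0.11 for Sipa1l2 and 0.17 for Sipa1l3, and LYS against control -0.11 for Sipa1l3, -0.056 for Rasgrp3 and -0.12 for Krit1. Rap2b in IMQ against control was -0.016 without the filter, where Krit1 in LYS against control was -0.00397, and Rapgef6 in LYS against IMQ was -0.012 with all 9 libraries. With 1 library left out, log2 fold changes turned in IMQ against control for Rap1b (-0.13 to 0.037) and Rap2b (-0.067 to 0.092), and in LYS against control for Rap2c (-0.12 to 0.065), Rap1gap2 (-0.43 to 0.088), Sipa1l3 (-0.063 to 0.13), Rapgef1 (-0.13 to 0.028), Rapgef3 (-0.38 to 0.063), Rapgef5 (-0.16 to 0.071), Rasgrp3 (-0.15 to 0.25), Krit1 (-0.10 to 0.10) and Radil (-0.49 to 0.11).

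Same-numbered libraries did not deviate together (correlations from -0.36 to 0.14, and from -0.22 to 0.37 for libraries of different numbers). No pairing by number was seen, and with 3 libraries a group these values cannot exclude one. With the replicate block, 15 members were called in IMQ against control, against 8044 of 15976 genes tested. In LYS against IMQ it called 0 members and 0 genes, and 18 members had an unadjusted p under 0.05, against 3385 of 15460 genes. In LYS against control 8 members were called, against 3126 of 16003 genes.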
